A study of Mus musculus with 12 samples.

Results

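The Notch pathway was followed through 10 of its core genes in whole mouse retina: the receptors Notch1, Notch2, Notch3 and Notch4, the ligands Jag1, Jag2, Dll1 and Dll4, the DNA-binding protein Rbpj and the target gene Hes5. They were taken from the gene table by symbol, and all 10 were found among its 53028 genes. Of these, 8 passed the expression filter of a level of at least 1 in at least 3 of 12 libraries that left 16486 genes for testing, and Dll4 and Hes5 did not. The genes were selected on measured values of these same libraries, their gene levels across the 4 groups, so levels and differences are given as a description, without p-values.

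Poly(A) RNA had been sequenced in 12 retinal libraries, 3 in each of 4 groups. The groups were wild-type (Pilrb1/2+/+) and knockout (Pilrb1/2 -/-) retinas taken 28 days after birth (P28) or at 12 months. Per the series text, Pilra and Pilrb1/2 were removed by CRISPR editing in C57BL/6J zygotes, and a founder carrying the deletion was crossed to C57BL/6J over several generations. The sample labels name Pilrb1/2 alone, and give no animal of origin, so each test measures a spread between libraries that may be technical in part. By the Xist levels given below, P28 knockout and 12-month wild type each held libraries of both sexes. Those groups were thus not all from a single animal, and for the other groups this is unknown. The editing is of the germ line, so every retinal cell of a knockout carries it.

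Notch receptors sit on the cell surface and are cut when a Jagged or Delta ligand on a neighbouring cell binds them and pulls. The intracellular part is released by gamma-secretase, enters the nucleus and joins RBPJ on DNA, where it turns on repressors of the Hes and Hey families. In the developing retina the pathway holds cells in a progenitor state and favours Müller glia, the radial support cells of the retina, while in blood vessels Notch3 is known from mural cells and Notch4 and Dll4 from endothelium.

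As inferred from the deposited values, libraries held between 14.7 and 25.9 M reads. At 12 months there were fewer in knockout (17.1 to 21.1 M) than in wild type (22.4 to 25.9 M). A floor of 3 reads was 0.111 to 0.192 CPM, where CPM are counts scaled to the library total and normalized by the authors. Pilrb1 and Pilrb2 were each at 0 in 11 of 12 libraries, wild type included, and therefore could not check the labels. Pilra went against a deletion at P28, with 0.441, 1.16 and 0.819 CPM in knockout above 0.133, 0.167 and 0.170 CPM in wild type. At 12 months it overlapped, at 0.159, 0.221 and 0.268 CPM in wild type against 0.0556, 0.309 and 0.293 in knockout. Knockout and wild type below therefore mean the libraries so labelled, and each direction rests on those labels. Rod markers, 9 genes, were abundant in every library, and their sum was lower in knockout without overlap at both ages. It was 32113 to 43059 CPM against 22507 to 28340 at P28 (0 of 9 lower by the all-gene test), and 36210 to 43348 against 22038 to 28981 at 12 months (5 of 9 lower). Summed cone markers, 7 genes, were at 1217 to 1327 CPM against 853 to 956 at 12 months (5 of 7 lower) and overlapped at P28 (3 of 7 lower). Summed bipolar markers, 7 genes, were higher in 12-month knockout, at 1487 to 1547 against 1368 to 1403 CPM (0 of 7 passed). Amacrine and ganglion markers, 9 genes, were also higher in sum there, at 1203 to 1385 against 1048 to 1122 CPM (2 higher and 2 lower). Both sums overlapped at P28. These shifts ran alongside the knockout differences below, and their part in those differences was not tested. Summed lens crystallin and membrane genes, 12 in all, ranged from 10.7 to 1876 CPM in 11 libraries and reached 5087 CPM in P28 knockout replicate 2. Xist exceeded 100 CPM in P28 knockout replicates 2 and 3 and in 12-month wild-type replicates 1 and 2, so sex was unequal between the groups. Across 16266 genes the knockout difference at 12 months ran against the GC content of the transcripts, with a Spearman correlation of -0.79 as a description. At P28 that correlation was -0.34. The correlation with transcript length was 0.43 at P28 and 0.21 at 12 months. For tested genes the difference is therefore also given, where its direction or size changed, after a smooth GC and length trend was removed from every library.

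Hes5, a short-lived repressor of neuronal genes, is a textbook target of RBPJ, and it was the only member with the longer RBPJ core in the 250 bases before its start. The promoters of Hes5 and Rbpj are shown because they were the members with matches on both strands; capitals mark the RBPJ core TGGGAA, or TTCCCA where it lies on the other strand. The sequences are RefSeq entries of the build GRCm38.p6, printed 5′ to 3′ on the gene's strand, for Hes5 at chr4:154960673-154960922 (+ strand) and for Rbpj at chr5:53590096-53590345 (+ strand).
Hes5: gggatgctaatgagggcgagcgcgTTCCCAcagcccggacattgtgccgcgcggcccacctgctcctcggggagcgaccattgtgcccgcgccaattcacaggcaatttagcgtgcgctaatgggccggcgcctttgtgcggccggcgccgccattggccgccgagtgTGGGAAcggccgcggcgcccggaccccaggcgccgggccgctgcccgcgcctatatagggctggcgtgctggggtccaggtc
Rbpj: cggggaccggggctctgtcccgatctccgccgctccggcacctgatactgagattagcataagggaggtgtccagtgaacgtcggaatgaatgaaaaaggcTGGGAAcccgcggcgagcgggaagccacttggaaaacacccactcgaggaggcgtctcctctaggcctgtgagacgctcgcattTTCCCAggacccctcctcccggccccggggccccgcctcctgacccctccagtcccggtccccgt
In Hes5 the matches begin 82 bases before the start in the forward orientation and 226 bases before it in the reverse one. In Rbpj they begin 149 (forward) and 65 (reverse) bases before the start. All 10 members had an entry, 12 entries in all, and 3 of the 12 (25%), that of Hes5 and both of Rbpj, held TGGGAA or its complement TTCCCA, against 21.6% of all 32851 promoters. The entries of Rbpj overlap and share the same TTCCCA site, so that site is counted in both. The longer core GTGGGAA or its complement TTCCCAC, which contains the shorter one, was in 1 of 12 (8.33%), that of Hes5, against 5.42% of all. A match is a string of letters and not a measured binding site, and the share of members with one was near that of all promoters.

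Levels of the 10 genes were compared per length, as RPKM summed over the protein-coding transcripts of each gene. Jag1 was the most abundant, with a median of 25.3 RPKM over the 12 libraries (19.7 to 37.8). Rbpj followed at 13.5 (10.5 to 15.7), and these 2 genes did not overlap each other or any other member. Notch2 was the most abundant receptor, at 2.15 RPKM (1.6 to 2.92), and Dll1 the next ligand, at 1.43 (0.972 to 2.22). Notch1 stood at 0.775 (0.573 to 1.12) and Jag2 at 0.553 (0.301 to 0.833). Hes5 was at 0.326 RPKM with the widest relative range (0.0700 to 1.24). The vascular members lay at the bottom, Notch4 at 0.187, Notch3 at 0.167 and Dll4 at 0.147 RPKM. From Notch2 downwards the range of each gene overlapped that of its neighbour in this order. Notch2 overlapped none of the other receptors. The ranges ignore that all genes were measured in the same libraries. Within every library Dll1 lay above Notch1, and Notch1 above Jag2.

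**Figure D1:**
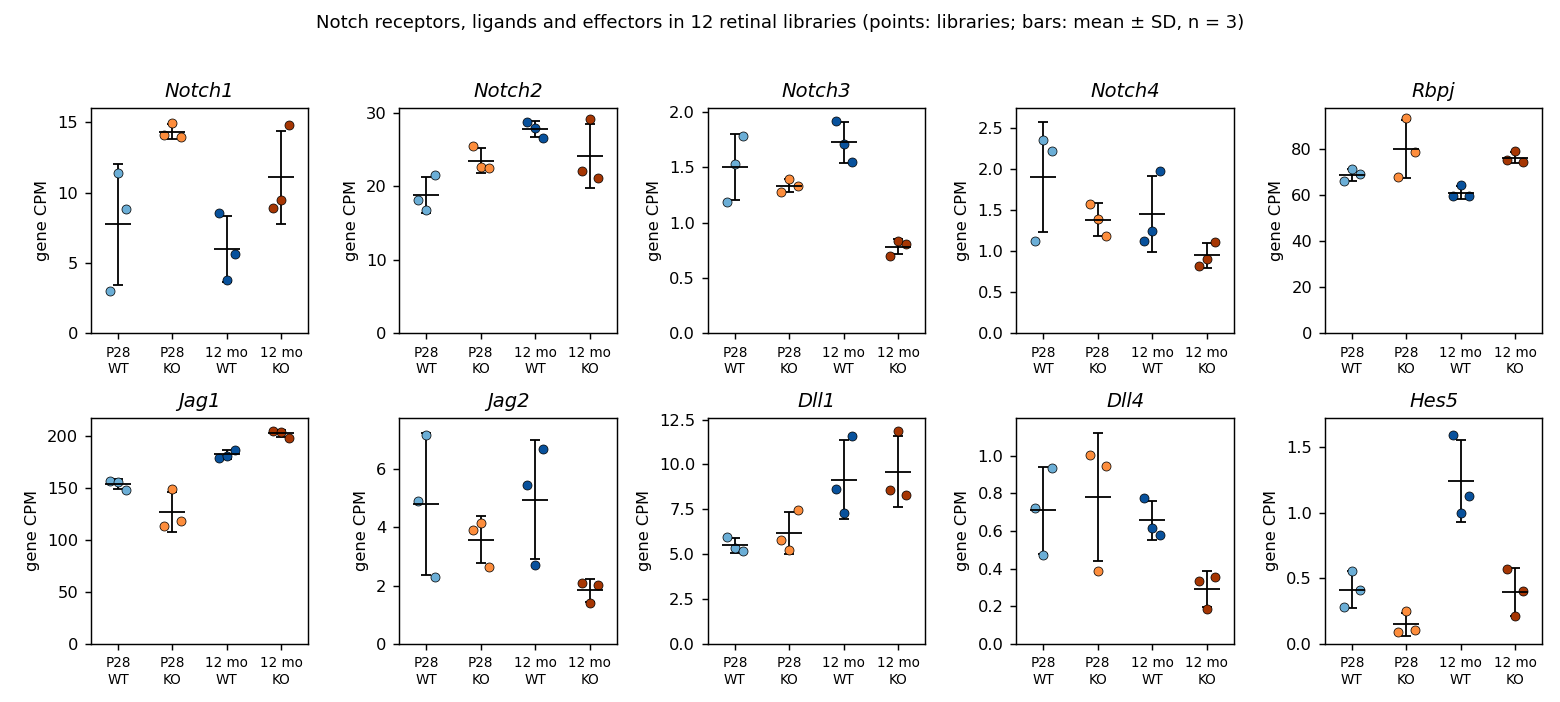
Gene CPM of the 10 Notch genes (vertical axis, linear, from 0) in the 4 groups; points are single libraries and bars the mean ± SD of 3. Hes5 libraries of knockout retina lie below those of wild type at both ages, the Notch3 mean is 1.33 CPM in P28 knockout and 0.781 CPM in 12-month knockout, and Jag1 is highest in 12-month knockout at 203 CPM.

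Hes5, a target gene of the pathway, was lower in knockout retina at both ages, at few reads. It does not stand for all effectors given below. Hes1 did not pass at either age, and at 12 months Hey2 was higher and Hes6 lower. Hes5 lies on the + strand of chromosome 4 (GRCm38 154960923 to 154962371, ENSMUSG00000048001), where Gm20421 overlaps it on the opposite strand. At P28 the wild-type libraries held 0.277, 0.556 and 0.408 CPM and the knockout libraries 0.0885, 0.251 and 0.103 CPM. Every knockout library was below every wild-type library, but the knockout values rest on 2, 4 and 2 reads against 7, 12 and 8, and 2 of them are at or under the floor of 3 reads. At 12 months wild type held 1.59, 0.999 and 1.13 CPM (37, 23 and 31 reads) and knockout 0.570, 0.209 and 0.406 CPM (9, 4 and 7 reads). The groups again did not overlap, and the wild-type mean of 1.24 ± 0.313 CPM (SD, n = 3) was 3.14 times the knockout mean of 0.395 ± 0.181 CPM. Among all tested genes, 13.2% lay below wild type without overlap at P28 and 32.2% did at 12 months, so at 12 months such a separation was common.

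On the log2(CPM + 1) scale, which compresses values this low, the knockout difference of Hes5 in a fit without the filter was -0.30 ± 0.13 (limma standard error) at P28 and -0.68 ± 0.13 at 12 months. Hes5 also differed by age. The wild-type mean at 12 months of 1.24 CPM stood above that of 0.414 ± 0.140 CPM at P28, without overlap, and the knockout means were 0.147 ± 0.0897 and 0.395 ± 0.181 CPM with overlapping libraries. Summed markers of Müller glia, 12 genes, ran from 3537 to 3894 CPM in 12-month wild type and from 3391 to 3437 CPM in 12-month knockout, and 3 of the 12 were lower there by the all-gene test. At P28 the sums overlapped, 3212 to 3770 against 3164 to 3427 CPM, and 0 of 12 passed. The part of these glia in the Hes5 values was not tested, and Hes5 has a transcript GC content of 62.1%, the highest of the members, with no trend-removed value because it was not tested. In bulk tissue fewer cells of a type cannot be told apart from less RNA per cell.

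Rbpj, the DNA-binding partner through which all 4 receptors act, was higher in 12-month knockout. It spans chromosome 5 from 53466152 to 53657362 on the + strand, with Gm10441 and Gm40304 on the other strand. Wild-type libraries at 12 months held 59.3, 64.0 and 59.4 CPM and knockout libraries 75.1, 78.9 and 74.3 CPM. All knockout libraries were above all wild-type ones, by 0.32 ± 0.10 on the log2 scale or 1.25 times in the means, and by 0.0095 after removal of the GC and length trend, at a transcript GC content of 43.2%. Coding transcripts alone gave 1.26 times.

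At P28 wild type held 65.8, 71.0 and 69.0 CPM of Rbpj and knockout 67.8, 93.1 and 78.6 CPM, with overlap. The highest value belongs to replicate 2, the library with the most lens RNA. Its coding transcripts were instead the lowest of all, at 55.1 RPM (transcript reads scaled to the library total, as RPKM times length) against 71.8 and 76.9 in the other 2 knockout libraries. In that library 2 short non-coding transcripts, Rbpj-209 (548 bases) and Rbpj-211 (678 bases), stood at 2.16 and 3.27 RPKM, while Rbpj-209 was at most 0.754 and Rbpj-211 at most 1.04 RPKM in any other library. Leaving replicate 2 out moved the P28 difference of Rbpj from 0.20 ± 0.10 to 0.089, and coding transcripts gave -0.039.

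Among the receptors, Notch1 showed opposite differences at 12 months depending on how its transcripts were counted. Notch1 is a main receptor of neural progenitors and lies on the minus strand of chromosome 2, from 26457903 to 26516663, with 11 annotated transcripts and the genes Gm13568 and 0610009E02Rik on the other strand. In the gene table it held 2.99, 11.4 and 8.81 CPM in P28 wild type and 14.1, 15 and 13.9 CPM in P28 knockout. The 12-month wild-type libraries held 8.53, 3.81 and 5.67 CPM, and the knockout libraries of that age 8.91, 9.49 and 14.8 CPM. By these values knockout was above wild type without overlap at both ages, by 0.96 ± 0.36 and 0.81 ± 0.36 on the log2 scale. Without P28 wild-type replicate 1, the library at 2.99 CPM, the P28 difference was 0.47.

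Reads of the protein-coding transcripts of Notch1 were 9.38, 7.5 and 8.15 RPM in 12-month wild type and 5.44, 5.76 and 6.39 in 12-month knockout. Here knockout was below wild type without overlap, by -0.44 ± 0.14, and the means of 8.35 ± 0.954 and 5.87 ± 0.483 differed 1.42 times. At P28 the coding reads overlapped, at 5.79, 8.04 and 6.78 against 7.36, 7.34 and 8.62, a difference of 0.16 ± 0.14. The direction at 12 months thus turned with the table used. Removal of the GC and length trend from the gene table gave 1.39 at 12 months.

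The gap between the tables followed 2 very short Notch1 transcripts of 157 and 184 bases. In 8 libraries these held 1 or 2 reads together, and there the gene CPM was 1.20 to 2.08 times RPM summed over all Notch1 transcripts. In the other 4 libraries, P28 wild-type replicate 1 and all 3 of 12-month wild type, they held 0 reads and the ratio was 0.482 to 0.858. Each library's median ratio was then scaled to 1. For all genes at 1 or more in both tables the 5th to 95th percentile of the scaled ratio was 0.895 to 1.15. The scaled ratio of Notch1 ran from 0.481 to 2.09 between libraries, a 4.34-fold span reached by 0.0727% of 13746 genes. Jag2, at 2.11-fold, and Dll1, at 1.78-fold, also departed, and 2.24% and 5.37% of genes had spans as large.

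**Figure D2:**
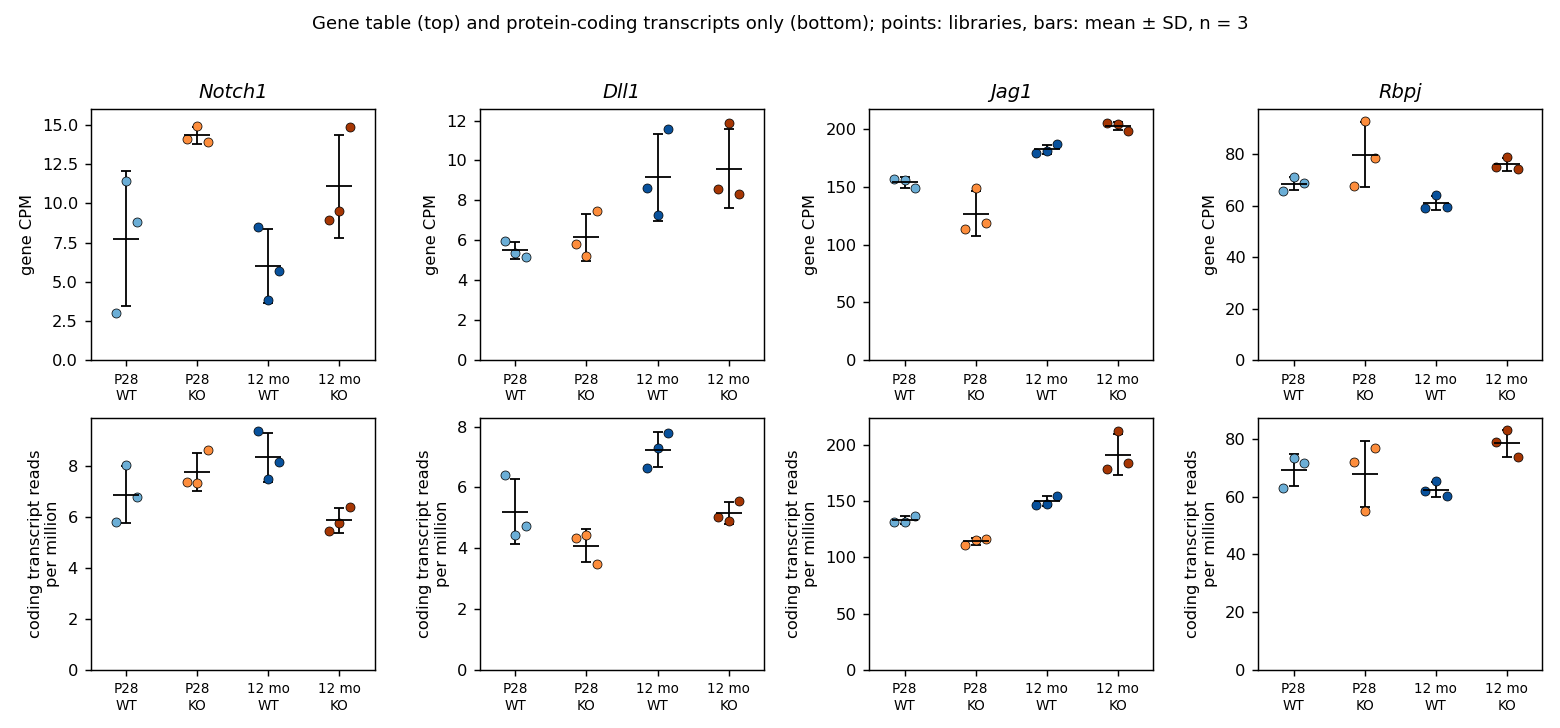
Gene CPM (top row) and RPM of protein-coding transcripts (bottom row, reads scaled to the library total) of Notch1, Dll1, Jag1 and Rbpj in the 4 groups, linear axes from 0; points are libraries and bars the mean ± SD of 3. At 12 months Notch1 knockout libraries lie above wild type in the top row (8.91 to 14.8 against 3.81 to 8.53 CPM) and below it in the bottom row (5.44 to 6.39 against 7.5 to 9.38).

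Notch2, the most abundant receptor here and one with a single measured transcript, had similar differences in both tables. Its gene is on the + strand of chromosome 3, from 98013527 to 98150361. P28 wild type held 18.1, 16.8 and 21.5 CPM and P28 knockout 25.5, 22.6 and 22.4 CPM. Knockout was above wild type without overlap there, by 0.31 ± 0.13, or 0.12 with the GC and length trend removed. In coding reads these groups overlapped, at 16.9 to 22.4 against 21.5 to 25.8 RPM. At 12 months wild type held 28.7, 27.9 and 26.6 CPM and knockout 22.1, 29.1 and 21.1 CPM, which overlapped (-0.21 ± 0.13, and 0.15 with the GC and length trend removed). With age the wild-type mean went from 18.8 ± 2.46 to 27.7 ± 1.07 CPM, 1.48 times and without overlap. The knockout means were 23.5 ± 1.73 and 24.1 ± 4.37 CPM. On the log2 scale the age difference was 0.54 ± 0.13 in wild type and 0.024 ± 0.13 in knockout. With the trend removed it was 0.42 in wild type and 0.44 in knockout, so the contrast between genotypes was not seen there. The knockout difference moved by -0.52 between the ages, and by 0.024 with the trend removed.

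Notch3, the receptor of vascular mural cells, was lower in 12-month knockout than in each other group. It lies on the minus strand of chromosome 17, from 32120820 to 32166852, opposite Gm17276. Wild type held 1.19, 1.53 and 1.78 CPM at P28 and 1.92, 1.71 and 1.55 CPM at 12 months. Knockout held 1.28, 1.39 and 1.33 CPM at P28 and 0.703, 0.833 and 0.808 CPM at 12 months. The last group rests on 11, 16 and 14 reads and overlapped none of the others, and its mean of 0.781 ± 0.0690 CPM was 2.21 times lower than the 1.73 ± 0.184 CPM of wild type. On the log2(CPM + 1) scale the differences were -0.092 ± 0.13 at P28 and -0.61 ± 0.13 at 12 months, and the latter became 0.050 with the trend removed. Coding transcripts alone gave a 2.14 times lower mean.

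Summed markers of pericytes and smooth muscle, 9 genes, were not lower in sum. They were at 123 to 131 CPM in 12-month wild type and 133 to 134 CPM in 12-month knockout, with 0 higher and 1 lower of the 7 tested by the all-gene test, and 2 of the 9 below 1 CPM in every library. At P28 they ranged from 162 to 184 CPM in wild type and from 134 to 242 CPM in knockout, and 0 of 7 passed. The part of mural cells in the Notch3 values was not tested.

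Both endothelial members were also lowest in 12-month knockout. Erythrocyte markers, 5 genes of blood held in the vessels, were lower in knockout in sum at both ages without overlap. They were at 32.5 to 49.6 CPM against 12.6 to 23.6 at P28 (3 of 5 lower by the all-gene test) and at 19.2 to 34.1 against 4.33 to 9.94 at 12 months (5 of 5 lower), and their part in the vascular values was not tested. Notch4, on the + strand of chromosome 17 from 34564268 to 34588503 and opposite Gm20462, showed 1.13, 2.36 and 2.22 CPM in P28 wild type, while P28 knockout held 1.58, 1.39 and 1.18 CPM. The 12-month values were 1.12, 1.25 and 1.98 CPM for wild type and 0.822, 0.909 and 1.11 CPM for knockout, a difference of -0.32 ± 0.19 that became 0.36 with the trend removed. The upper knockout value lies just under the lower wild-type value, and coding transcripts overlapped between the groups.

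Dll4, the ligand of sprouting vessel tips, is on the + strand of chromosome 2 from 119325784 to 119335962, opposite Gm14207. It held 0.720, 0.472 and 0.935 CPM in P28 wild type, 1, 0.386 and 0.944 CPM in P28 knockout, and 0.776, 0.614 and 0.580 CPM in 12-month wild type. In 12-month knockout it held 0.335, 0.183 and 0.355 CPM, below every library of the other groups. Summed over the Dll4 transcripts, these libraries held 6, 4 and 3 reads. The gene value of replicate 3 corresponds to 6.17 reads instead, so the 2 measures disagree in that library. The fit without the filter gave 0.047 ± 0.15 at P28 and -0.36 ± 0.15 at 12 months. Summed endothelial markers, 12 genes, were at 273 to 285 CPM in 12-month wild type and 240 to 266 CPM in 12-month knockout, and 5 of the 12 were lower by the all-gene test. At P28 the sums were 228 to 278 and 256 to 282 CPM, and 0 of 12 passed. The part of endothelial cells in the Notch4 and Dll4 values was not tested.

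Jag1, a Jagged ligand that activates Notch on neighbouring cells and by far the most abundant member, was below wild type at P28 and above it at 12 months in knockout. The gene lies on the minus strand of chromosome 2, from 137081456 to 137116644, and has 2 annotated transcripts. At P28 wild type held 157, 156 and 149 CPM and knockout 113, 149 and 118 CPM. The middle knockout value, replicate 2 with the high lens RNA, lay within the wild-type range, so the groups overlapped, at -0.29 ± 0.10, or -0.41 without that library. At 12 months wild type held 179, 181 and 187 CPM and knockout 206, 204 and 199 CPM. These did not overlap, and the difference was 0.15 ± 0.10 on the log2 scale, or -0.056 with quantile normalization. The knockout difference moved by 0.44 ± 0.13 between the ages.

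The coding transcript of Jag1, Jag1-201 of 5612 bases, separated the genotypes at both ages. It held 131, 131 and 137 RPM in P28 wild type and 111, 116 and 116 in P28 knockout. At 12 months it held 147, 148 and 155 in wild type and 179, 212 and 184 in knockout. Every P28 knockout library was thus below wild type and every 12-month knockout library above it, by -0.22 ± 0.08 and 0.35 ± 0.08. Over all genes the median P28 difference of coding reads was itself -0.11. The other transcript, Jag1-202, is annotated as a retained intron of 1463 bases. It held 7.65, 13.1 and 7.93 RPKM in P28 knockout against 14.2, 13.8 and 12.4 in P28 wild type, so that replicate 2 stood apart in this transcript and not in the coding one.

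Jag1 was higher at 12 months than at P28 in both genotypes without overlap. The wild-type mean went from 154 ± 4.58 to 183 ± 4.07 CPM, 1.19 times, and the knockout mean from 127 ± 19.5 to 203 ± 3.52 CPM, 1.6 times. In coding reads the same steps were 1.13 and 1.67 times. The direction of each step held under quantile normalization, median-of-ratios rescaling and removal of the GC and length trend.

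Jag2, the second Jagged ligand, was lower in 12-month knockout in the gene table. It lies on the minus strand of chromosome 12 from 112907819 to 112929776, with Mir6941 within it. Libraries held 4.91, 7.17 and 2.31 CPM in P28 wild type, 3.90, 4.16 and 2.65 CPM in P28 knockout, 5.46, 2.69 and 6.68 CPM in 12-month wild type and 2.10, 1.39 and 2.01 CPM in 12-month knockout. The wild-type values spread widely at both ages, and the last group lay below every other library. The 12-month difference was -1.01 ± 0.32, and -0.31 with the trend removed at a transcript GC content of 61.4%. Coding reads gave 3.79, 2.29 and 4.09 RPM in 12-month wild type against 2.28, 1.54 and 2.79 in knockout, which overlapped, at -0.45 ± 0.21.

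Dll1, a Delta ligand of neural progenitors, split between its transcripts. Its gene is on the minus strand of chromosome 17 from 15367354 to 15376872. In the gene table the genotypes overlapped at both ages, with 5.96, 5.34 and 5.18 against 5.80, 5.22 and 7.47 CPM at P28 and 8.63, 7.28 and 11.6 against 8.60, 11.9 and 8.30 CPM at 12 months. The coding transcript Dll1-201 was instead lower in knockout at 12 months, at 1.38, 1.37 and 1.55 RPKM against 1.85, 2.03 and 2.16. At P28 it was at 1.21, 1.24 and 0.972 against 1.79, 1.24 and 1.32, with no overlap in coding reads (3.48 to 4.45 against 4.45 to 6.42 RPM) but neighbours that meet when rounded.

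The transcript Dll1-204, annotated as a retained intron of 751 bases, ran the other way in some libraries. Knockout libraries held 1.6, 1.06 and 2.71 RPKM of it at P28 and 2.69, 5.09 and 2.41 at 12 months, and wild-type libraries 1.13, 1.08 and 1.22 at P28 and 2.52, 1.87 and 3.14 at 12 months. On the log2 scale coding reads of Dll1 gave -0.28 ± 0.15 at P28 and -0.42 ± 0.15 at 12 months, whereas gene CPM gave 0.13 ± 0.18 and 0.066 ± 0.18. Trend removal in the gene table gave 0.20 and 0.41. With age Dll1 was higher in both tables and both genotypes without overlap, by 1.67 times in wild type and 1.56 times in knockout in the gene table, and by 1.39 and 1.26 times in coding reads.

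**Figure D3:**
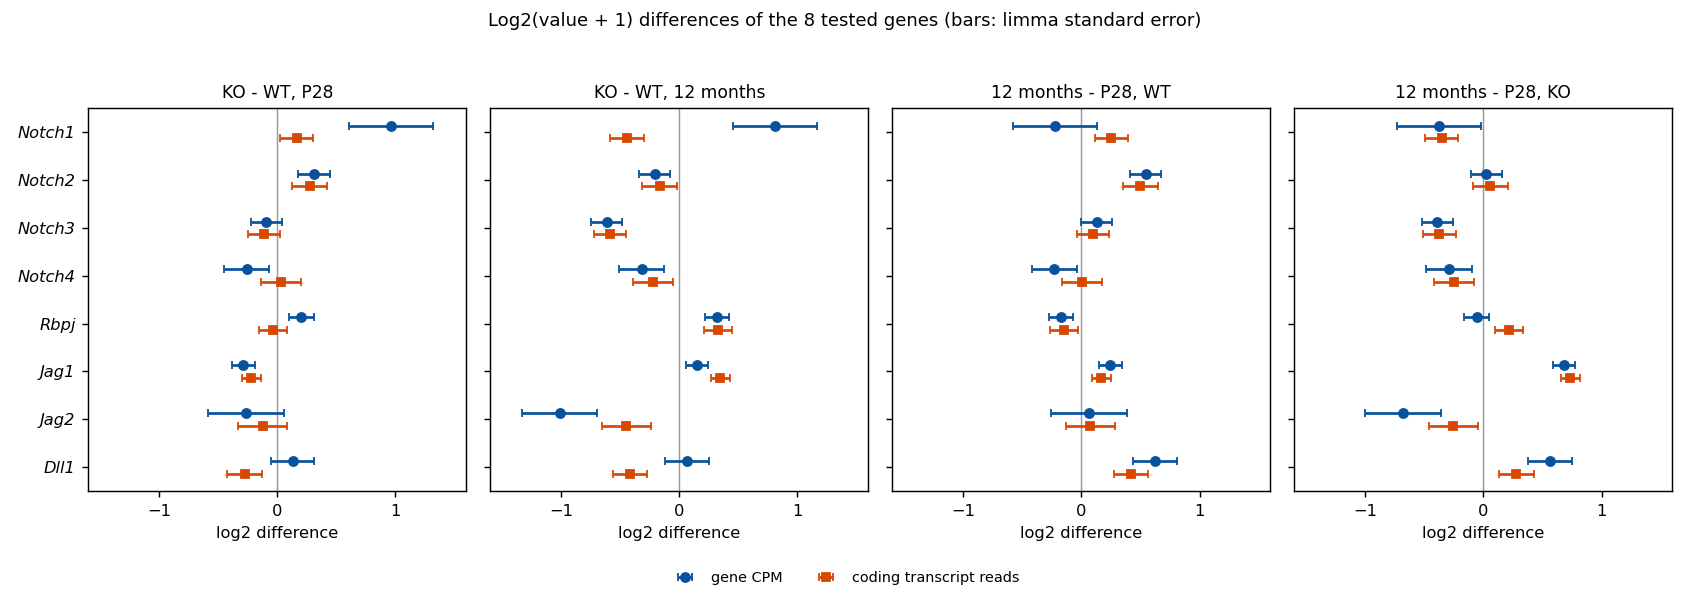
Log2(value + 1) differences of the 8 tested genes in 4 comparisons, from gene CPM (circles) and from coding transcript reads (squares); bars are limma standard errors. The 2 measures lie apart for Notch1 at 12 months (0.81 and -0.44) and for Dll1 (0.066 and -0.42), and close together for Notch2 and Notch3.

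Counts of members past the threshold are given beside those of all tested genes. At P28, 0 of the 8 tested members passed an adjusted p of 0.05 by limma, where 1.49% of all genes did. At 12 months 1 was higher (Rbpj) and 2 were lower (Notch3 and Jag2), where 39.6% of all genes passed, 16.1% higher and 23.5% lower. For the change of the knockout effect between ages 0 passed, against 0.176% of genes (0.0789% higher and 0.0971% lower). Between P28 and 12 months 1 member was higher in wild type (Notch2), where 5.4% of genes passed, 3.65% higher and 1.75% lower. In knockout Jag1 and Dll1 were higher and Notch3 was lower (0.15 with the trend removed), against 27.2% of genes, 13.3% higher and 13.9% lower. Nothing is read from these counts, since the members were chosen with the same values in view. The median member difference was 0.019 at P28 and -0.071 at 12 months, beside -0.014 and -0.029 for all tested genes.

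Separation of the libraries was counted for all 10 members. At P28 Notch1 and Notch2 lay above wild type (10.5% of tested genes did) and Hes5 below it (13.2%). At 12 months Notch1, Jag1 and Rbpj lay above (27% of genes) and Notch3, Notch4, Jag2, Dll4 and Hes5 below (32.2%). In coding reads 0 members lay above wild type at P28 (4.12% of genes) and Jag1, Dll1 and Hes5 below it (17.7%). The 12-month set above was Jag1 and Rbpj (24.3%) and the set below Notch1, Notch3, Dll1, Dll4 and Hes5 (31.8%). Between ages, 12-month wild type lay above P28 in Notch2, Jag1, Dll1 and Hes5 (18.9%) and below it in Rbpj (16%). In knockout Jag1 and Dll1 lay above (18%) and Notch3, Notch4, Jag2 and Dll4 below (18%). With the trend removed the age difference in knockout was 0.15 for Notch3, 0.23 for Notch4 and -0.22 for Jag2. In coding reads the same 4 genes lay above in wild type (12%) and 0 below (17.5%), and in knockout Jag1 and Dll1 above (15.4%) and Notch1, Notch3 and Dll4 below (14.9%).

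The rest of the pathway was read from a list of 73 other genes that act on ligands, receptors, their cleavage, the nuclear complex or receptor turnover, 68 of which were tested in the all-gene limma fit. At P28, 0 were higher and 0 lower in knockout at an adjusted p of 0.05, and 14 had an unadjusted p under 0.05. At 12 months 8 were higher and 18 lower, against 16.1% and 23.5% of all genes, and the median difference was -0.085 beside -0.029 for all. The higher genes had a median GC content of 44.4% and the lower ones 56.7%, and with the GC and length trend removed 3 were higher (Mib1, Neurl1b and Hes7) and 2 lower (Rfng and Kdm5a). Of the 26 genes called before removal, 2 were then called in the same direction, Mib1 and Rfng. The part of GC content in these calls was not tested beyond that removal.

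Mib1, the ubiquitin ligase that starts ligand endocytosis, rose at 12 months with the smallest p of the higher genes. Wild-type libraries of that age held 162, 180 and 201 CPM and knockout libraries 313, 366 and 296 CPM, without overlap. The difference was 0.84 ± 0.14 (limma adjusted p = 0.00293), and 0.47 (adjusted p = 0.0426) with the trend removed. Of the 4 tested genes of ligand endocytosis, Mib2 and Neurl1a were lower, and Mib2 turned to 0.065 with the trend removed.

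Of 10 tested genes of receptor cleavage, 2 rose and 5 fell. The sheddases that make the first cut rose, Adam10 by 0.58 ± 0.13 (limma adjusted p = 0.0051) and Adam17. With the trend removed the Adam10 difference was 0.23 (limma adjusted p = 0.15). Of the gamma-secretase genes, whose product makes the second cut, Ncstn, Aph1a and Psenen fell, as did Furin, which cuts the receptor on its way to the surface. Ncstn, the substrate-binding subunit, went from 37.8, 35.6 and 38.8 CPM in wild type to 25.2, 25.6 and 27.3 CPM in knockout. The difference was -0.51 ± 0.10 (limma adjusted p = 0.00371), and -0.28 (limma adjusted p = 0.0525) with the trend removed. With the trend removed none of the cleavage genes named here passed, and Aph1a turned to 0.087. Aph1b, another subunit, was at 0.21 ± 0.12 and did not pass (limma adjusted p = 0.187).

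Among the glycosyltransferases that tune ligand choice, Rfng (radical fringe) showed the largest fall. It went from 16.7, 11.7 and 16.9 CPM in 12-month wild type to 4.90, 2.86 and 5.14 CPM in knockout, a difference of -1.61 ± 0.23 (limma adjusted p = 0.00248), and of -0.88 (adjusted p = 0.0137) with the trend removed. Lfng was also lower, but at 0.15 with the trend removed. Gxylt1 was higher by 0.30 ± 0.08 (limma adjusted p = 0.0157), and by 0.11 (limma adjusted p = 0.409) with the trend removed. The Gxylt1 call was lost without 12-month wild-type replicate 1 or knockout replicate 1, with an adjusted p of up to 0.0697.

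Of the nuclear genes, the coactivator Kat2b and the corepressor Hdac2 were higher and Kat2a, Ctbp1 and Tle2 lower, of 7 coactivators and 16 corepressors tested, and Ctbp1 turned to 0.15 with the trend removed. Of 11 genes of receptor turnover, Itch, a ubiquitin ligase, was higher by 0.35 ± 0.09 (limma adjusted p = 0.0094), at -0.0013 with the trend removed. Numbl, a Numb-like inhibitor, was lower, at -0.77 ± 0.14 (limma adjusted p = 0.00332), and so were Dtx1 and Dtx3. With the trend removed the Numbl difference was -0.34 (limma adjusted p = 0.145).

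Among 7 other tested effectors, which are Hes and Hey genes and the feedback inhibitor Nrarp, Hey2 was higher and Hes6 lower at 12 months. Hes6, which opposes Hes1, went from 4.71, 2.83 and 4.02 CPM to 1.40, 1.05 and 1.74 CPM. The difference was -1.01 ± 0.20 (limma adjusted p = 0.00361), and -0.22 (limma adjusted p = 0.331) with the trend removed. Hes1, the best known relative of Hes5 and a main Notch target, showed 8.71, 7.85 and 11.8 CPM in P28 wild type, while P28 knockout held 14.2, 8.14 and 13.5 CPM. The 12-month values were 9.06, 10.1 and 8.94 CPM for wild type and 10.5, 15.6 and 9.71 CPM for knockout. Its differences of 0.29 ± 0.22 at each age did not pass (limma adjusted p = 0.465 and 0.301).

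**Figure D4:**
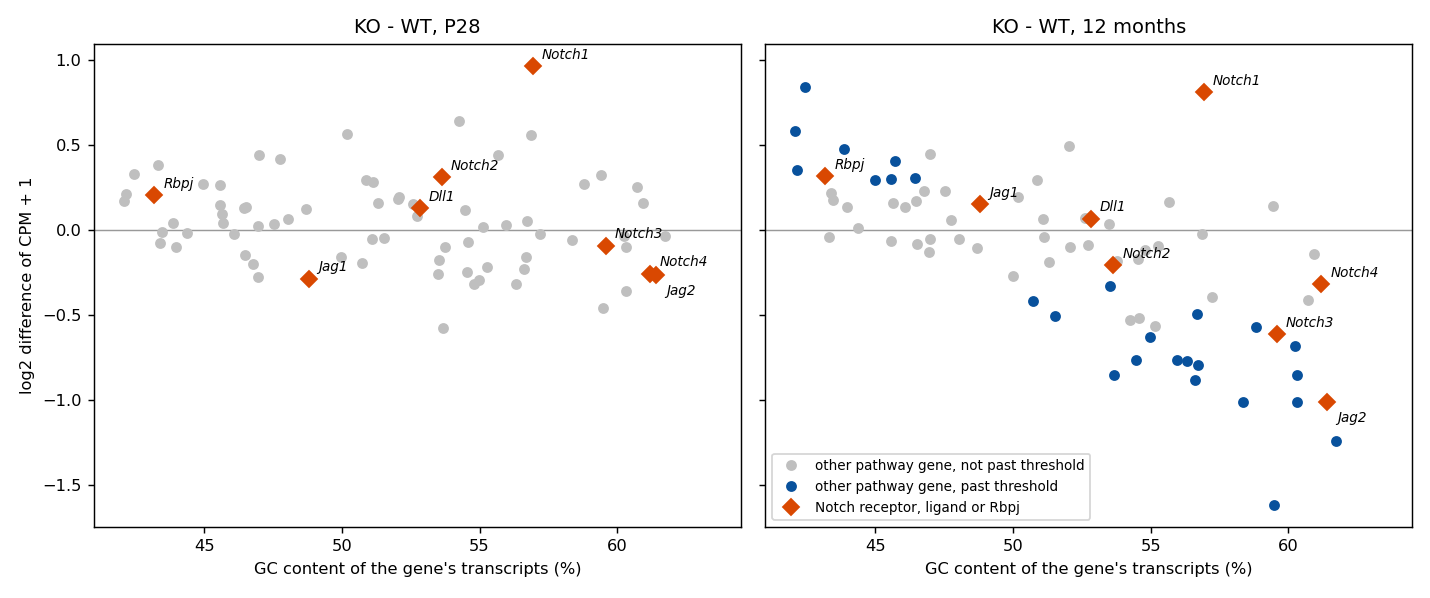
Knockout minus wild-type log2(CPM + 1) difference (vertical axis) against the GC content of each gene's transcripts (horizontal axis, percent) at P28 and 12 months; grey and blue points are the other 68 pathway genes, blue those past an adjusted p of 0.05, and diamonds the 8 tested Notch members. At 12 months blue points run from above 0 at low GC to below 0 at high GC (medians of 44.4% and 56.7%). Notch1, at 56.9% GC and 0.81 by gene CPM, lies off that run, while its coding transcript reads gave -0.44.

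With age, 1 pathway gene rose and 0 fell in wild type by the all-gene test (3.65% and 1.75% of all genes), and 7 had an unadjusted p under 0.05. The gene that rose was Eogt, an O-linked GlcNAc transferase of Notch repeats, from 20.9, 27.9 and 23.7 to 35.3, 33.0 and 36.3 CPM. Its difference was 0.52 ± 0.11 (limma adjusted p = 0.0161), and the call was lost, at an adjusted p of up to 0.0754, without replicate 1 or 3 of either wild-type group. In knockout 9 rose and 13 fell (13.3% and 13.9% of all genes), and 9 and 8 did with the trend removed, 15 of them the same genes in the same direction.

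The risers by smallest p in knockout were Xxylt1, a xylosyltransferase of Notch repeats, at 0.64 ± 0.10 (limma adjusted p = 0.000985), and the Groucho-family corepressor Tle4 at 0.48 ± 0.10 (limma adjusted p = 0.00475). Aph1b and Gxylt1 followed at 0.49 ± 0.12 and 0.32 ± 0.08, and both calls depended on single libraries. Aph1b lost its call without 12-month knockout replicate 2 (adjusted p = 0.0518), and Gxylt1 without replicate 1 of either knockout group (up to 0.0614). The fallers were Numbl at -0.91 ± 0.14 (limma adjusted p = 0.00111) and Egfl7, a secreted vascular Notch ligand. Egfl7 was at -0.85 ± 0.17 (limma adjusted p = 0.00386), and at -0.49 (limma adjusted p = 0.0520) with the trend removed. Rfng at -1.04 ± 0.23 and Neurl1a at -0.92 ± 0.21 came next. For the change of the knockout effect between ages, 0 of the 68 passed in either direction and 17 had an unadjusted p under 0.05.

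Finally, the tested genes whose log2(CPM + 1) ran closest to each member over the 12 libraries were listed for the 4 members with the widest range of group means, as a description without p-values. The libraries share genotype, age and depth. Both the choice of members and the correlations rest on gene CPM. For Notch1, Jag2 and Dll1 that measure departed from transcript reads, as given above, and the correlations were not repeated in coding reads. For Notch1 the closest genes were Proser1 (Pearson r = 0.947), Nlgn3 (0.887) and Gm19744 (0.877). For Jag2 they were Prss36 (0.93), Sbsn (0.928) and Brsk2 (0.918), and for Dll1 Gm14951 (0.932), Cpa6 (0.918) and BC006965 (0.903). Jag1 had the closest neighbours, Mef2c (0.989), Zfp365 (0.982) and Sap30 (0.980). No other Notch member was among these 12 genes.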

How the data were processed

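Poly(A) RNA libraries of retina were grouped by their titles. The submitters' processing notes name kallisto 0.45.0 for quantification, tximport 1.30.0 for gene sums and edgeR 4.0.3 for normalization. A human reference is named there, but the deposited identifiers are mouse and were matched to GRCm38. Gene values, a signal, were deposited by the authors as TMM-normalized CPM. The transcript values were deposited by the authors as RPKM, and how they were made is not given in the sources used here. Neither holds counts, and no count test was run.

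From these, log2(CPM + 1) of 16486 genes (at least 1 CPM in at least 3 of 12 libraries) was fitted with limma 3.58.1 in R 4.3.3 on 4 group means, with a trend and Benjamini-Hochberg adjustment at 0.05. Coding reads (RPM) are RPKM times annotated length, summed over the protein-coding transcripts of a gene. Read numbers and depths were inferred, with the most frequent low value of a library taken as 1 read. Whole multiples of it made up 11.4% to 28.5% of low gene values and 26.9% to 31.7% of low transcript values. The GC and length trend was a spline of 5 degrees of freedom per library, over the 98.7% of tested genes with both values. The floor of 3 reads covers counting error only, while standard errors and SDs measure the spread between libraries.

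The members, lists and tests were chosen with earlier results of these data known. Besides the members, the text names by rule up to 4 higher and 4 lower pathway genes per comparison by adjusted p, Hes1, the targeted genes and the 3 genes most like each of 4 members. Other pathway genes are named to make a small count clear. Some pathway genes are counted but not reported by name here. Alternatives were pseudocounts, filters, quantile and median-of-ratios scaling, summed RPKM, trend removal, a sex term from Xist, a replicate block, a fit of 2 groups and leaving out each library, and, chosen after seeing the data, transcript reads. The steps were tested on simulated data. Python 3.11.15, pandas 2.3.3 and matplotlib 3.10.9 made tables and figures.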

Additional observations from a re-analysis of the deposited data

Results flagged for a closer look

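In some genes every knockout library lay on 1 side of wild type at P28 and on the other side at 12 months. Of the 68 other pathway genes and 8 members tested, Poglut1 and Tle3 did so in gene CPM, and Jag1 in coding reads. Of all 16486 tested genes, 2.12% did so in gene CPM and 2.06% in coding reads, and nothing is read from the number in the pathway. In protein-coding reads Jag1 was below wild type at P28 and above it at 12 months, and its knockout difference moved by 0.57 on the log2 scale. That change was not tested, since Jag1 was chosen with its values known. Poglut1, the glucosyltransferase of Notch repeats, was at 48.8 to 52.1 CPM in P28 knockout against 53.5 to 57.3 CPM in wild type, and at 58.1 to 64.4 against 51.3 to 56.2 CPM at 12 months. Its difference moved by 0.32 (limma adjusted p = 0.110 for the change between ages). Tle3, a Groucho-family corepressor, went the other way, at 23.6 to 28.1 against 14.6 to 20.1 CPM at P28 and 7.92 to 17.4 against 17.8 to 23.4 CPM at 12 months. Its difference moved by -1.17 (limma adjusted p = 0.0820).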

How the results depend on the processing

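Counts of genes past the threshold depended on the settings, and the cause was not tested except where a setting itself uses fewer samples or genes. With the GC and length trend removed, the all-gene count fell from 6536 to 904 at 12 months and from 29 to 3 for the change between ages, the pathway counts at 12 months from 8 higher and 18 lower to 3 and 2, in wild type with age from 1 to 3 higher, and in knockout with age from 13 to 8 lower. The same setting turned the 12-month difference of Notch3 to 0.050, Mib2 to 0.065, Lfng to 0.15, Aph1a to 0.087, Ctbp1 to 0.15 and Itch to -0.0013, and the age difference of Notch3 in knockout to 0.15. Some differences that had not passed also turned, among them the age differences in knockout of Notch4 (-0.29 to 0.23) and Notch1 (-0.38 to 0.14). A sex term gave 1 gene at P28 (246 without it), 5 higher pathway genes at 12 months, 0 genes for the change between ages, 361 genes (891 without it) and 0 pathway genes for age in wild type, and 4 higher pathway genes for age in knockout. Without a filter, calls were 67 at P28, 5 higher pathway genes at 12 months, 5 genes for the change between ages and 7 lower pathway genes for age in knockout. A filter of 5 CPM gave 1 higher pathway gene at P28 and 8 lower ones for age in knockout. Quantile normalization gave 1 lower pathway gene at P28 and 5 higher ones at 12 months. Fitting only the groups compared gave 0 genes at P28, 2293 for age in wild type with 3 higher and 1 lower in the pathway, and 1569 (4483 in the fit of all groups) for age in knockout with 2 and 5. Summed transcript RPKM gave 5 genes for the change between ages. Summed transcript reads gave 65 genes there, 1 higher pathway gene at P28 and 0 for age in wild type. Coding transcripts alone gave 114 genes and 1 higher pathway gene at P28, and 430 genes and 0 pathway genes for age in wild type.

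The labels name no pairing by replicate number, and correlations of same-numbered libraries ran from -0.33 to 0.308. For knockout against wild type at 12 months they were 0.0989, 0.308 and 0.156, and numbers 2 and 3 each matched their own number best. Number 1 did so at P28 and for age in wild type, and no number did for age in knockout. With 3 libraries per group this does not settle whether samples were paired. A replicate block gave 59 genes at P28 and 4 for the change between ages, and pathway counts of 7 higher and 17 lower at 12 months.

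Leaving out each library in turn, the all-gene counts ran from 3 to 1419 at P28, 3562 to 7773 at 12 months, 1 to 2501 for the change between ages, 414 to 1658 for age in wild type and 2472 to 5529 for age in knockout. Pathway counts, higher then lower, ran from 0 to 2 and 0 to 1 at P28, 4 to 11 and 13 to 19 at 12 months, 0 to 2 and 0 to 6 for the change between ages, 0 to 3 and 0 to 1 for age in wild type, and 4 to 11 and 6 to 16 for age in knockout. The 12-month count of 8 higher fell to 4 without wild-type replicate 1 or 3 or knockout replicate 2, and to 5 without knockout replicate 1. The age count in knockout fell to 4 higher without 12-month knockout replicate 1 or 2, to 5 without P28 knockout replicate 1, and to 6 lower without 12-month knockout replicate 2. For the change between ages, 2 rose and 6 fell without P28 knockout replicate 3, and 5 fell without 12-month knockout replicate 3.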
